A study of Mus musculus with 4 samples.

Results

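The genes described here encode the proteasome and its partners. They were taken by symbol, as all genes on the array whose symbol starts with Psma, Psmb, Psmc, Psmd, Psme, Psmf or Psmg followed by digits, less the immunoproteasome genes Psmb8 and Psmb9. The rule used no measured value and found 48 of the 19505 genes with a probe set. Of these, 30 encode subunits of the core particle or the regulatory particle, and 5 encode activators or an inhibitor. A further 7 encode assembly chaperones, 3 encode subunits known from other tissues or from the immunoproteasome, and 3 share the symbol without being subunits. No member was represented by more than 1 probe set, and Psmb5 was not analysed here.

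The samples were cardiac macrophages of wild-type C57BL/6N mice aged 15 to 16 weeks that had undergone transverse aortic constriction (TAC), which loads the left ventricle with pressure; the design text calls the mice Ctrl-TAC. A mixture of 6 hearts was sorted into the populations Ccrl2, CD74, CD163 and Trem2, named here by sample title, and each gave 1 library on 1 Clariom S array. All groups thus share the strain, the surgery and the pooled animals, and none is a control. The labels disagree on the time after TAC, which is 8 weeks by source name and 1 week by growth protocol. They also disagree on markers: the source name of the CD74 library has CD9, and the protocol sorts on Lyve1 where a title has CD163. With 1 array for each population, differences below are between libraries, with no replicate check and no test, and precision is limited by that number.

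The proteasome is the protease that degrades ubiquitin-tagged proteins. Its core particle is a barrel of alpha and beta rings, with the alpha subunits guarding the entrance and 3 kinds of beta subunit cutting the substrate inside. The regulatory particle that caps the barrel has a base of ATPases, which unfold the substrate, and a lid, which binds it and removes ubiquitin. In macrophages the same machinery produces peptides for antigen presentation and removes inhibitors of inflammatory signalling, and interferon exchanges the catalytic beta subunits for those of the immunoproteasome. The transcription factor Nfe2l1 is known to raise proteasome genes together through antioxidant response elements (ARE).

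Promoter windows are printed for 6 members, chosen as examples of those lowest in CD74 (Psma6, Psmc6), of a catalytic subunit (Psmb6) and of members high or low in another library (Psmd12, Psmf1, Psmg1). Each window is the 250 bases before the RefSeq start on GRCm38.p6, 5′ to 3′ on the gene's strand. Capitals mark matches, on either strand, to the ARE core TGACNNNGC or to the CCAAT box (CCAAT), and in these windows no ARE match overlaps a CCAAT match.
Psma6, chr12:55383972-55384221, + strand: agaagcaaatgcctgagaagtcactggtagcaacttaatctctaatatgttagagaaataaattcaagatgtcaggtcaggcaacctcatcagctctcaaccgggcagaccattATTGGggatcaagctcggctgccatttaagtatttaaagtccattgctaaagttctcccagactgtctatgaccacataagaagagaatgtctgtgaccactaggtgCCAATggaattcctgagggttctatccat
Psmb6, chr11:70525107-70525356, + strand: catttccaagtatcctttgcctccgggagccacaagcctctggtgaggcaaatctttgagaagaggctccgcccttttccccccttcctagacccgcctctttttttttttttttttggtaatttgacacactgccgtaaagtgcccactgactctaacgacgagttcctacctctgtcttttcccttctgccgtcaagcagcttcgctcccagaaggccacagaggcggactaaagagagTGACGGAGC
Psmc6, chr14:45329574-45329823, + strand: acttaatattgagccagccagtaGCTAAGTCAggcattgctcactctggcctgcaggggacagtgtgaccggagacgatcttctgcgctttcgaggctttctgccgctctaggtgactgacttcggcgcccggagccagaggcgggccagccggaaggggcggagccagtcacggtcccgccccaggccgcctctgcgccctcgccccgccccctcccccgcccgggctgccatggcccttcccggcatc
Psmd12, chr11:107479278-107479527, + strand: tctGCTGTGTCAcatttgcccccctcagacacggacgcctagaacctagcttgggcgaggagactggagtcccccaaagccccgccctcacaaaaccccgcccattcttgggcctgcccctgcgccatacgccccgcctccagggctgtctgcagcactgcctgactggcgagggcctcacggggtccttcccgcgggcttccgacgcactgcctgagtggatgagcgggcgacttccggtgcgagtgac
Psmf1, chr2:151741311-151741560, - strand: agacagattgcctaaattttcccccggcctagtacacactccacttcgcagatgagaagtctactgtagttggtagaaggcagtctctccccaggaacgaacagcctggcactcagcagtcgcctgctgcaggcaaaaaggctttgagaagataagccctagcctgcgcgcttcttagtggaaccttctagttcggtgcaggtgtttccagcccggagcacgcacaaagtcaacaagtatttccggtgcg
Psmg1, chr16:95990961-95991210, - strand: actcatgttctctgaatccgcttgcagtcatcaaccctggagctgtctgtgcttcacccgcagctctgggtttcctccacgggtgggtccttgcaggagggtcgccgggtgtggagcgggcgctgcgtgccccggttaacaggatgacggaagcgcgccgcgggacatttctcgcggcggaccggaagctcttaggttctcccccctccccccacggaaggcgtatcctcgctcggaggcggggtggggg
The Psmb6 window ends in an ARE match that covers the 9 bases before the start. Psmc6 and Psmd12 have theirs on the opposite strand, 227 to 219 and 247 to 239 bases before it. The Psma6 window holds a CCAAT box 29 to 25 bases before the start and a second, on the opposite strand, 136 to 132 bases before it, and the Psmf1 and Psmg1 windows hold neither motif. Of the 40 members with a window, 4 (10.0%) held the ARE core and 14 (35.0%) the CCAAT box, against 10.2% and 33.8% of all 32851 windows. The members' shares were thus near those of all promoters, and a match is only a match of letters.

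Values are the deposited log2 values. A library's background ceiling is the 95th percentile of its values for 1498 chemosensory receptor and keratin-associated genes, which macrophages are not known to use. The Ccrl2 ceiling lay at 5.67, that of CD74 at 6.53, that of CD163 at 6.28 and that of Trem2 at 5.51. It was passed by 7454, 3621, 4984 and 8144 genes in that order, so CD74 and CD163 had the higher ceilings and the fewer measured genes. The sort marker Ccrl2 had 16.58 in the Ccrl2 library and 9.58 in CD74, with 14.00 in CD163 and 16.59 in Trem2, and Trem2 had 7.17, 5.94, 6.71 and 7.20 in that order. Cd163 had 13.01, 4.96, 14.51 and 13.11, Lyve1 13.88, 5.56, 19.93 and 14.32, and Cd9 10.79, 8.69, 9.35 and 11.65. The CD74 library also went partly against its label as a macrophage population. The median over 10 macrophage markers was 15.61 in Ccrl2 and 8.05 in CD74, with 14.56 in CD163 and 14.16 in Trem2. In CD74, 7 of the 10 passed the ceiling, against 10 in each other library. Those under it in CD74 were Fcgr1, Mertk and Aif1. Of 14 T and NK cell markers, 12 passed the ceiling in CD74, against 1 in Ccrl2, 2 in CD163 and 8 in Trem2. The log2 of their summed level was 14.0 in CD74 and at most 10.9 elsewhere. Of 9 neutrophil markers, 7 passed it in Trem2, against 4 in Ccrl2, 4 in CD74 and 1 in CD163, and the log2 of their summed level was 17.2 in Trem2 and at most 9.96 elsewhere. The part of such cells in the values below was not tested. In bulk samples, fewer cells of a type and less RNA per cell cannot be told apart.

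Proteasome genes were higher in the Ccrl2 and Trem2 libraries than in CD74 and CD163, on the deposited scale. Of the 48 members, 40 passed the ceiling in 1 or more libraries. The members above it numbered 39 for Ccrl2, 17 for CD74, 24 for CD163 and 40 for Trem2, and 14 did so in all 4 libraries. Among the 40 measured members, 30 (75.0%) had both their Ccrl2 and their Trem2 value above both others, against 49.4% of the 9346 genes measured in the same way. This order was read from values as they stand, also those under a ceiling, for members and genes alike. For some members, such as Psmb4 and Psmg2, neither bright value passed the CD74 ceiling, so their order is not established. Over all 48 members the count was 32 (66.7%), against 27.8% of all 19505 genes. These sets are unlike, since 40 of the 48 members but only 9346 of the 19505 genes passed a ceiling. The share among measured genes is the closer comparison. By role it held for 25 of 29 measured core subunits (86.2%) and for 1 of 5 activators and inhibitor. The opposite arrangement held for 1 member, Psmf1, and for 9.91% of measured genes. Without CD74 the pattern, now Ccrl2 and Trem2 above CD163, held for 31 of 40 members (77.5%) and 60.3% of measured genes. After quantile normalization, which gives all arrays the same distribution, the first arrangement held for 17 members (42.5%) and 29.4% of genes, and the opposite for 6 members (15.0%) and 17.8%. It then held for 12 of the 29 core subunits (41.4%). These were 4 of 7 alpha, 4 of 6 beta and 2 of 5 ATPase subunits. The other 2 were among the 11 non-ATPase subunits (18.2%), a share under that of genes. The members' share for the first arrangement stayed above that of measured genes under each of these settings, but its size depended on the scale.

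**Figure D1:**
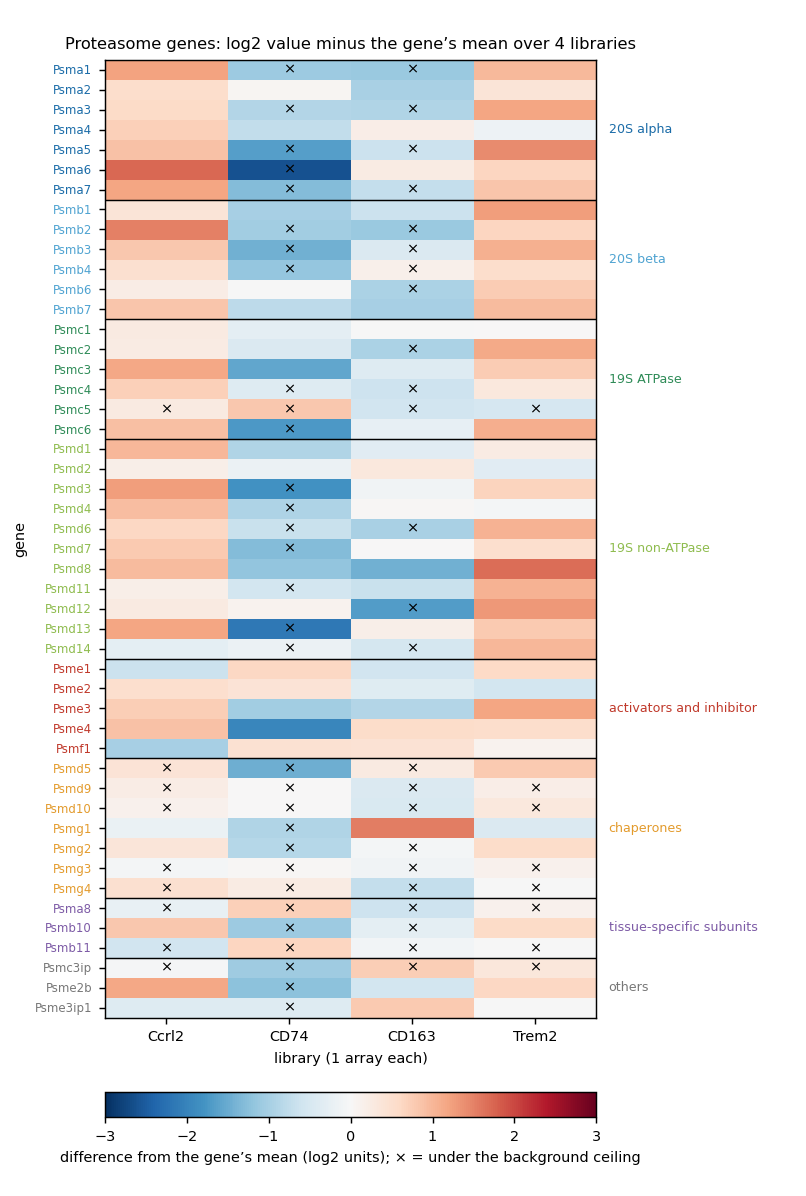
Each row is a proteasome gene and each column a library, with colour giving the log2 value minus the gene's mean over the 4 libraries and a cross marking values under the background ceiling. Red fills most of the Ccrl2 and Trem2 columns for the core and regulatory particle genes, while Psme1, Psmf1 and Psmg1 break the pattern.

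The alpha subunits form the outer rings of the core particle. All 7 passed the ceiling in Ccrl2 and in Trem2, 2 in CD74 and 3 in CD163. Psma6 had the widest range of all members, 4.35 log2 units, with 9.27 in Ccrl2 and 4.92 in CD74, and 7.80 in CD163 and 8.19 in Trem2. It was at least 6.68-fold higher in Ccrl2 than in CD74, where it lay under the ceiling, and 2.77-fold and 2.11-fold higher than in CD163 and Trem2. Psma5, with the next widest range among the alpha subunits, had 7.14 in Ccrl2 and 4.61 in CD74, with 5.63 in CD163 and 7.69 in Trem2, so that only Ccrl2 and Trem2 passed their ceilings.
Psma4 was the least variable alpha subunit, with 10.15 in Ccrl2 and 8.69 in CD74, and 9.64 in CD163 and 9.28 in Trem2. Psma2 was the only alpha subunit at least 2-fold lower in CD163 than in each other library. It had 6.58 there against 8.10 in Ccrl2, 7.62 in CD74 and 7.95 in Trem2, 2.06-fold under the nearest library. Its CD74 value was thus close to those of Ccrl2 and Trem2. After quantile normalization Trem2 was the nearest library to the Psma2 value in CD163, and CD163 minus Trem2 was -0.63, under the 2-fold threshold. The other members of the ring, Psma1, Psma3 and Psma7, lay between 6.90 and 8.41 in Ccrl2 and Trem2 and under the ceilings of CD74 and CD163. The median difference over the 7 was 2.30 for Ccrl2 minus CD74, 1.51 for Ccrl2 minus CD163 and 0.25 for Ccrl2 minus Trem2. Over all genes tested the same medians were 0.96, 0.69 and -0.08.

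The beta subunits form the inner rings, and Psmb6, Psmb7 and Psmb5 carry the active sites. All 6 measured beta subunits had both their Ccrl2 and their Trem2 value above CD74 and CD163 on the deposited scale, and 4 of the 6 did so after quantile normalization. These counts include values under a ceiling. For Psmb4 neither the Ccrl2 nor the Trem2 value passed the CD74 ceiling of 6.53. Psmb7, the trypsin-like subunit, had 8.53 in Ccrl2 and 6.90 in CD74, with 6.69 in CD163 and 8.65 in Trem2. It was 3.10-fold and 3.58-fold higher in Ccrl2 than in CD74 and CD163, and Ccrl2 and Trem2 differed by only 0.12. Psmb6, the caspase-like subunit, had 6.80 in Ccrl2 and 6.57 in CD74, with 5.62 in CD163 and 7.33 in Trem2. Its value in CD163 lay under the ceiling, and the other 3 were within 0.76 of each other.
Among the structural beta subunits, Psmb2 had the widest range, with 7.82 in Ccrl2 and 5.27 in CD74, and 5.21 in CD163 and 6.95 in Trem2. Psmb3 followed with 6.90, 4.63, 5.64 and 7.15 in the same order, and Psmb4 had the smallest range with 6.44, 4.82, 6.13 and 6.49. All 3 lay under the ceiling in both CD74 and CD163, so their folds are bounds, and only that of Psmb2 passed 2-fold, at least 2.45-fold over CD74 and at least 2.91-fold over CD163 in Ccrl2. Psmb1, whose values were 8.88, 7.50, 7.87 and 9.77, passed its ceiling in every library and was highest in Trem2. The median over the 6 was 1.63 for Ccrl2 minus CD74 and -0.19 for Ccrl2 minus Trem2.

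The 6 ATPases of the base thread substrates into the barrel. Psmc3 had 9.78 in Ccrl2 and 7.06 in CD74, with 8.24 in CD163 and 9.39 in Trem2, and passed its ceiling everywhere. It was 6.59-fold higher in Ccrl2 than in CD74, and its CD74 value was 2.27-fold under the nearest library. Psmc6 had 7.79 in Ccrl2 and 5.16 in CD74, with 6.63 in CD163 and 7.97 in Trem2. Only its CD74 value lay under the ceiling, and because that ceiling is close to the CD163 value, the difference shown between CD74 and CD163 is 0.10 log2 units or more. Psmc1 was nearly level, with 7.49 in Ccrl2 and 6.93 in CD74, and 7.21 in CD163 and 7.22 in Trem2, the smallest range of all measured members (0.56). Psmc2 was higher in Trem2, at 8.26, and lowest in CD163, at 6.18, while Psmc4 passed its ceiling only in Ccrl2 (6.56) and Trem2 (6.17). Psmc5 lay under the ceiling in all 4 libraries. Within this ring, therefore, subunits that the particle contains together differed in how far their values spread across libraries.

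The non-ATPase subunits make up the lid and the rest of the base. Psmd13, a lid subunit, had 6.35 in CD74, against 9.67 in Ccrl2, 8.67 in CD163 and 9.28 in Trem2. Psmd3, another lid subunit, had 6.10 in CD74, against 9.17 in Ccrl2, 7.82 in CD163 and 8.60 in Trem2. Psmd7, the partner of the deubiquitinase Psmd14, had 6.35 in CD74, against 8.45 in Ccrl2, 7.67 in CD163 and 8.15 in Trem2. All 3 lay under the ceiling only in CD74, where they were at least 4.41-fold, 2.45-fold and 2.20-fold below the nearest library, CD163. Without such bounds, a difference of 2-fold or more held after quantile normalization for Psmd13 and Psmd3, whereas Psmd7 then lay 0.89 under its nearest library. With the CD74 value set to its ceiling, it held against each other library only for Psmd13. Psmd3 was then not called between CD74 and Trem2.
A different set was low in CD163 or high in Trem2. Psmd8, a lid subunit, had 9.36 in Ccrl2 and 7.24 in CD74, with 6.98 in CD163 and 10.09 in Trem2, all above the ceilings. It was 8.63-fold lower in CD163 than in Trem2, the largest measured fold of any member between those libraries. Psmd12, also of the lid, had 8.20 in Trem2, against 7.16 in Ccrl2, 6.99 in CD74 and 5.23 in CD163, where it was under the ceiling. Psmd14, which cuts ubiquitin chains off the substrate, had 7.24 in Trem2, against 5.94 in Ccrl2 and values under the ceiling of 6.05 in CD74 and 5.71 in CD163. Its excess over CD74 is shown only as at least 1.64-fold, because the CD74 ceiling is high.
The scaffold subunit Psmd2 was nearly level, with 7.24 in Ccrl2 and 6.89 in CD74, and 7.39 in CD163 and 6.73 in Trem2, and was the only core member with its lowest value in Trem2. The other scaffold subunit, Psmd1, had 8.55, 6.66, 7.23 and 7.82 in the same order, and the ubiquitin receptor Psmd4 had 8.36, 6.52, 7.48 and 7.39. Psmd6 and Psmd11, both of the lid, were highest in Trem2, at 6.55 and 8.11. Over the 11 non-ATPase genes the median of Ccrl2 minus CD74 was 1.84, and that of CD163 minus Trem2 was -0.78, which turned to 0.28 after quantile normalization.

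**Figure D2:**
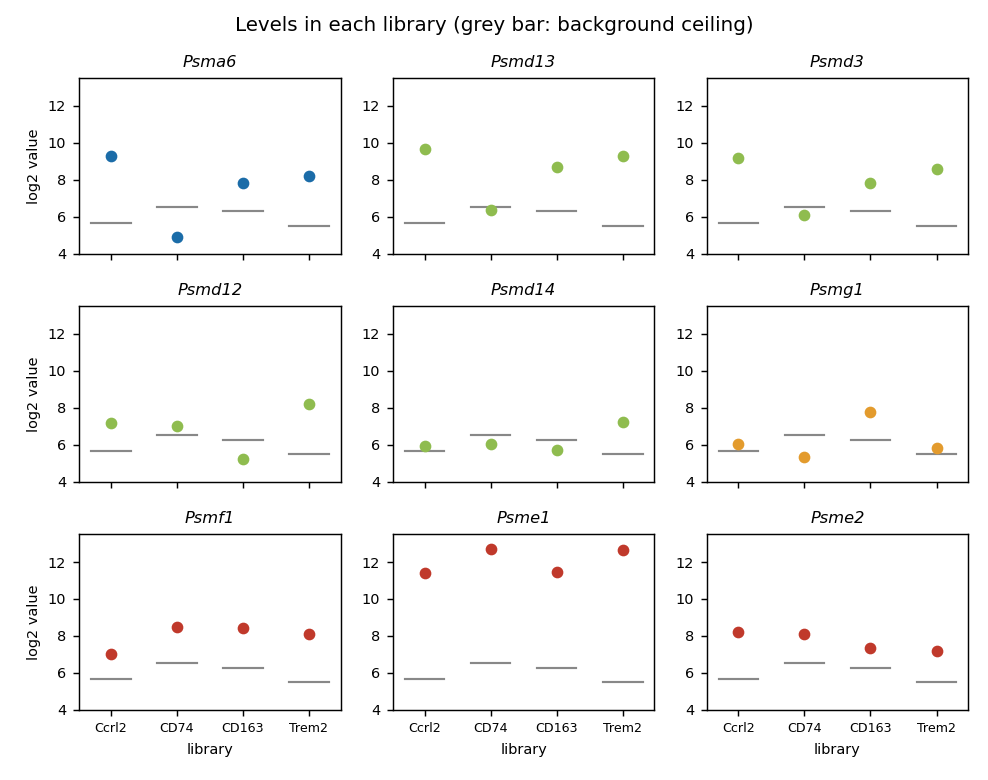
Points are the log2 values of 9 proteasome genes in the 4 libraries, and grey bars are each library's background ceiling. The top row is low in CD74, Psmd12 and Psmd14 are highest in Trem2, Psmg1 is highest in CD163, and Psmf1 is lowest in Ccrl2.

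The activators and the inhibitor can bind the ends of the core particle in place of the regulatory particle. All 5 passed the ceiling in every library, and as a class they did not follow the particle's subunits. Psme1, the alpha chain of the interferon-induced activator PA28, had 11.42 in Ccrl2 and 12.69 in CD74, with 11.48 in CD163 and 12.66 in Trem2. Its beta chain Psme2 had 8.21, 8.12, 7.35 and 7.17 in the same order. Psme1 was thus highest in CD74 and Trem2 and its partner in Ccrl2 and CD74. Psme1 was 2.36-fold lower and Psme2 2.06-fold higher in Ccrl2 than in Trem2. After quantile normalization these differences became -1.17 and 0.93 on the log2 scale, and CD74 then held the highest value of each chain, 14.12 for Psme1 and 9.17 for Psme2.
Psmf1, which encodes the inhibitor PI31, was the only member at least 2-fold lower in Ccrl2 than in each other library, with 7.03 in Ccrl2, against 8.47 in CD74 and 8.44 in CD163, and 8.13 in Trem2. The share of genes that were lower in Ccrl2 in this way was 0.171% of 9346. As a rank within each library, which needs no common scale, Psmf1 lay at percentile 78.6 in Ccrl2 and 95.7 in CD74, with 93.8 in CD163 and 86.2 in Trem2. Quantile normalization left Ccrl2 lowest at 6.80, but the gap to Trem2 narrowed to -0.77, under the 2-fold threshold.
Psme4, the nuclear activator PA200, had 6.65 in CD74, against 9.48 in Ccrl2, 9.15 in CD163 and 9.14 in Trem2, 5.62-fold below the nearest library. Psme3, the activator PA28 gamma, had 8.44 in Ccrl2 and 6.67 in CD74, with 6.82 in CD163 and 8.89 in Trem2, so that Ccrl2 and Trem2 lay above both others, as in the beta subunits.

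Assembly chaperones were mostly under the ceilings. Of the 7, 4 (Psmd9, Psmd10, Psmg3 and Psmg4) did not pass it anywhere. Psmg1, which with Psmg2 helps alpha subunits to join into a ring, had 7.77 in CD163, against 6.05 in Ccrl2, 5.33 in CD74 and 5.82 in Trem2. It was 3.29-fold lower in Ccrl2 than in CD163 and was the only member higher there than in every other library by 2-fold or more, a class with 2.82% of measured genes. Its partner Psmg2 had 5.86 in Ccrl2 and 4.63 in CD74, with 5.43 in CD163 and 6.04 in Trem2. Only Ccrl2 and Trem2 were above the ceiling, and both values lay under the CD163 ceiling of 6.28. Whether Psmg2, like Psmg1, was highest in CD163 can therefore not be told. Psmd5, a chaperone of the base, had 5.37 in Ccrl2 and 3.51 in CD74, with 5.24 in CD163 and 5.74 in Trem2, of which only the Trem2 value passed the ceiling. The testis subunit Psma8 and the thymus subunit Psmb11 lay under it in every library, as did Psmc3ip, a meiotic recombination factor that carries the symbol by name only.

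Psmb10 is the immunoproteasome counterpart of Psmb7 and the only catalytic immunoproteasome gene among the members. It had 6.62 in Ccrl2 and 4.73 in CD74, with 5.53 in CD163 and 6.38 in Trem2, and the CD74 and CD163 values lay under their ceilings. Its companions Psmb8 and Psmb9 were left out by the rule. Psmb8 had 8.06, 7.15, 7.82 and 8.73 in the same order, all above the ceilings, and was 2.99-fold lower in CD74 than in Trem2. After quantile normalization that difference was -0.17 on the log2 scale. Psmb9 had 5.52, 6.01, 5.92 and 5.66, of which only the Trem2 value passed its ceiling, so its order cannot be compared with that of Psmb8. With values under a ceiling set to it, no immunoproteasome gene was at least 2-fold higher in Ccrl2 than in any other library. Psme2b, a close copy of Psme2, had 8.61 in Ccrl2 and 6.21 in CD74, with 6.89 in CD163 and 8.07 in Trem2, unlike Psme2, and how far the probes of the copies share signal was not tested. Psme3ip1, a partner of Psme3, was highest in CD163 at 7.57, with 6.40 in Ccrl2, 6.39 in CD74 and 6.77 in Trem2.

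Members at least 2-fold apart were counted for each pair of libraries. In each count a value under its ceiling was set to that ceiling. Between Ccrl2 and CD74, 17 of 39 members tested were higher in Ccrl2 (43.6%) and 2 lower (5.13%), against 32.0% and 7.8% of the 7902 genes tested. The lower members were Psme1 and Psmf1. Between Ccrl2 and CD163, 16 of 39 were higher in Ccrl2 (41.0%) and 3 lower (7.69%), against 28.1% and 5.03% of 7891 genes. The lower members here were Psmf1, Psmg1 and Psme3ip1, none of them a particle subunit. Among the 29 core subunits tested, 14 were higher and 0 lower in Ccrl2 in each of these comparisons.
The Ccrl2 and Trem2 libraries were close. Of 40 members tested, 2 were higher in Ccrl2 (5.0%), namely Psma6 and Psme2, and 4 were lower (10.0%), namely Psmd12, Psmd14, Psme1 and Psmf1. Over the 8773 genes tested the shares were 5.43% and 7.92%, so the members' counts were near the background. The median difference was 0.05 over the members and -0.08 over all genes. The lowest and highest differences were -1.30 for Psmd14 and 1.08 for Psma6.
CD74 and CD163, the libraries with the higher background, differed more. Of 27 members tested between them, 2 were higher in CD74 (7.41%), Psma2 and Psme1, and 8 lower (29.6%), against 9.98% and 19.3% of 5842 genes. Between CD74 and Trem2, 0 of 40 members were higher in CD74 and 19 lower (47.5%), against 7.62% and 32.6% of 8522 genes. Between CD163 and Trem2, 1 member, Psmg1, was higher in CD163 (2.5%) and 16 were lower (40.0%), against 6.07% and 27.6% of 8532 genes.
Since a gene enters such a comparison through its brighter library, medians were also taken over all 48 members, measured or not. They were 1.33 for Ccrl2 minus CD74, 1.01 for Ccrl2 minus CD163 and -0.09 for Ccrl2 minus Trem2, beside 0.05, 0.02 and 0 over all 19505 genes. They were -0.22 for CD74 minus CD163, -1.50 for CD74 minus Trem2 and -0.77 for CD163 minus Trem2, beside -0.05, -0.05 and -0.01. The sets are unlike, since 40 of the 48 members but only 9346 of the 19505 genes passed a ceiling in at least 1 library. Over those tested, the median of Ccrl2 minus CD74 was 1.62 over members and 0.96 over genes. Among the medians over all 48, only that of Ccrl2 minus Trem2 differed in sign from the median over members tested. After quantile normalization the median of CD74 minus CD163 over all 48 was 0.06, also of the other sign.
Comparisons that involve the same library share its values and are not independent. Quantile normalization changed the counts of members and of all genes together. For Ccrl2 against CD74 it left 6 members higher in Ccrl2 and 3 lower, beside 12.1% and 20.3% of genes. For Ccrl2 against CD163 it left 3 higher and 4 lower, beside 9.45% and 13.3%, and for Ccrl2 against Trem2 0 and 1, beside 3.83% and 4.23%. For CD74 against CD163 there were then 4 members higher in CD74 and 7 lower, beside 21.2% and 15.9% of genes. For CD74 against Trem2 there were 6 higher and 4 lower, beside 18.1% and 10.6%, and for CD163 against Trem2 6 and 7, beside 15.0% and 10.0%. The excess in Ccrl2 and Trem2 by count therefore depended on the scale. After quantile normalization the 3 of 39 members higher in Ccrl2 than in CD163 were no longer a larger share than that of genes. Nor were the 4 of 40 lower in CD74 than in Trem2. Larger shares than those of genes remained for members higher in Ccrl2 than in CD74 and lower in CD163 than in Trem2. The direction of the medians over members tested was kept: that of Ccrl2 minus CD74 was 0.88 over the members and 0.36 over all genes tested, and that of Ccrl2 minus CD163 0.40 and 0.19.

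**Figure D3:**
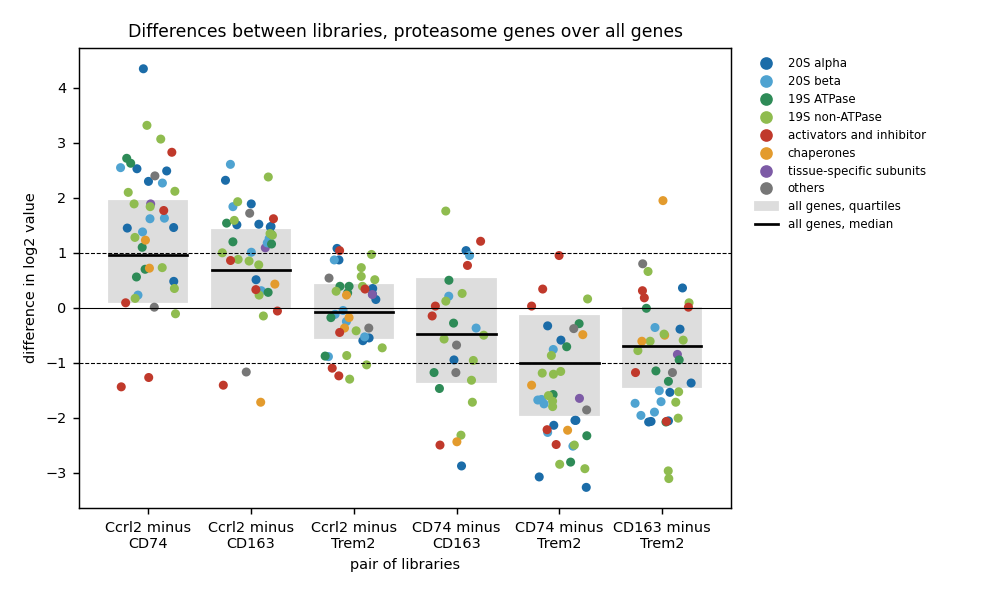
Each point is a proteasome gene that passed the ceiling in either library of a pair, placed by its difference in log2 value and coloured by role; grey boxes and black lines are the quartiles and median of all genes tested, and dashed lines mark 2-fold. Core and regulatory particle genes sit mostly beyond the median of all genes in pairs that set CD74 or CD163 against Ccrl2 or Trem2, and around 0 for Ccrl2 minus Trem2.

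Members that set a library apart from each of the other 3 were few except in CD74. There 7 of 40 measured members were lowest by 2-fold or more (17.5%), against 15.6% of measured genes, so the share was near the background. They were Psma6, Psmc3, Psmc6, Psmd3, Psmd7, Psmd13 and Psme4, and 0 members were highest in CD74 by that margin, against 4.42% of genes. CD74 is also the library with most T and NK cell markers above the ceiling and 3 of 10 macrophage markers under it, whose part in these values was not tested. In Ccrl2, Psma6 was above and Psmf1 below, with 3.65% of genes above. In CD163, Psmg1 was above and Psma2 and Psmd12 were below, with 4.72% of genes below. In Trem2, Psmd12 and Psmd14 were above and 0 members were below, against 5.66% and 0.214% of genes. Of these 14 calls, on 12 genes, 11 also held with each dim value set at its ceiling. The exceptions were Psmc6 in CD74, Psmd12 in CD163 and Psmd14 in Trem2, whose nearest differences were then -0.10, -0.71 and 0.71. After quantile normalization 5 of the 7 members remained lowest in CD74 by this rule (all but Psmc3 and Psmd7), beside 11.8% of genes, and Psme1 and Psme2 were highest there, beside 10.7%. With dim values set at their ceilings, only Psmd13 and Psme4 of those 5 were then still 2-fold lower in CD74 than each other library. In Ccrl2 none was then above and Psme1 was below, beside 1.71% and 0.332% of genes. In CD163 Psmg1 and Psme3ip1 were above and Psmb6 and Psmd12 below, beside 5.9% and 3.7%, and in Trem2 0 members were above, beside 2.04%. With dim values at their ceilings, Psmb6 and Psmd12 were then not 2-fold lower in CD163 than each other library. Several calls lay close to the threshold, the nearest being Psmd13 with a difference of 1.00 and Psmb1 with 1.01 between Ccrl2 and CD163, while Psmd4 with 0.97 between Ccrl2 and Trem2 stayed just outside.

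Proteasome cofactors and regulators were read from further lists. Of 17 cofactor genes with a probe set, 16 were tested between Ccrl2 and CD74, and 11 were at least 2-fold higher in Ccrl2 (68.8%) and 0 lower, against 32.0% and 7.8% of all genes tested. After quantile normalization 6 of 16 were higher, against 12.1% of genes. Against Trem2, 1 was higher in Ccrl2, the shuttle factor Ubqln1 (9.66 in Ccrl2 and 8.22 in Trem2), and 1 lower, Sem1, a small subunit of the lid. Sem1 had 8.54 in Ccrl2 and 6.49 in CD74, with 7.11 in CD163 and 10.20 in Trem2. Vcp, the segregase that pulls ubiquitin-tagged proteins apart for the proteasome, had 10.30 in Ccrl2 and 5.84 in CD74, with 7.05 in CD163 and 9.33 in Trem2. Zfand5, a proteasome activator, had 17.10, 12.57, 18.20 and 16.74 in the same order, and Zfand2a, a stress-induced cofactor, 12.88, 8.01, 12.09 and 12.22. Pomp, a chaperone of core particle assembly, had 8.01, 6.30, 7.99 and 8.34, with only CD74 under its ceiling.
Nfe2l1 had 10.74 in Ccrl2 and 8.77 in CD74, with 10.05 in CD163 and 10.61 in Trem2. Its quantile-normalized values were 9.96, 10.00, 10.52 and 9.74 in that order, so that Ccrl2 and Trem2 were above the others only on the deposited scale. Its relative Nfe2l2, a regulator of oxidative stress genes, had 6.46 in Ccrl2 and 4.70 in CD74, with 4.50 in CD163 and 5.41 in Trem2, above the ceiling only in Ccrl2. The small MAF genes Mafk and Maff, whose products pair with both factors, had 7.59, 5.14, 6.85 and 6.91, and 8.35, 6.33, 7.57 and 8.43 in that order. Of 9 genes in this list of regulators, 5 of 7 tested were at least 2-fold higher in Ccrl2 than in CD74 (71.4%, against 32.0% of all genes). Higher in Ccrl2 than in CD163 were 2 of 7 (28.6%), a share near the 28.1% of all genes, and between Ccrl2 and Trem2 0 of 9 were called either way. After quantile normalization 0 of 7 were higher in Ccrl2 than in CD74 or CD163. After quantile normalization the median of this list for Ccrl2 minus CD74 was -0.04, compared with 1.76 on the deposited scale.

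Of the other large complexes, oxidative phosphorylation shared much of the arrangement of the proteasome on the deposited scale and the ribosome less. Ccrl2 and Trem2 were both above the others for 47 of 69 measured oxidative phosphorylation genes (68.1%) and 18 of 54 ribosomal protein genes (33.3%), and for 22 (31.9%) and 2 (3.7%) after quantile normalization. The shares of all measured genes were 49.4% on the deposited scale and 29.4% after quantile normalization. For CD74 minus Trem2 the median was -1.70 over both the core proteasome and oxidative phosphorylation genes. For Ccrl2 minus CD74 the median was 1.63 over 29 core proteasome subunits, 1.08 over 64 oxidative phosphorylation genes and -0.66 over 54 cytosolic ribosomal protein genes, beside 0.96 over all genes tested. After quantile normalization these were 0.93, 0.27 and -2.66, beside 0.36. For CD74 minus CD163 the medians were -0.50, -0.52 and 2.23, beside -0.47. The CD163 library was the lowest for 50 of 54 ribosomal protein genes (92.6%) and for 13 of 29 core proteasome subunits (44.8%), and CD74 was the lowest for 2 and 15 of them. Over all measured genes CD163 was the lowest for 28.3% and CD74 for 47.8%. The share of core subunits lowest in CD74 (51.7%) was thus near that of all measured genes. After quantile normalization CD163 was the lowest for 35 ribosomal protein genes and Ccrl2 for 18, and CD163 for 13 and CD74 for 12 core proteasome subunits. For Ccrl2 minus Trem2 the medians were 0.15 for the core proteasome, -0.37 for oxidative phosphorylation and -0.94 for ribosomal proteins, beside -0.08 over all genes. After quantile normalization these were 0.19, -0.23 and -0.79. The difference between lists has no test with 1 library a group, and the ribosomal values lie higher on the scale.

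**Figure D4:**
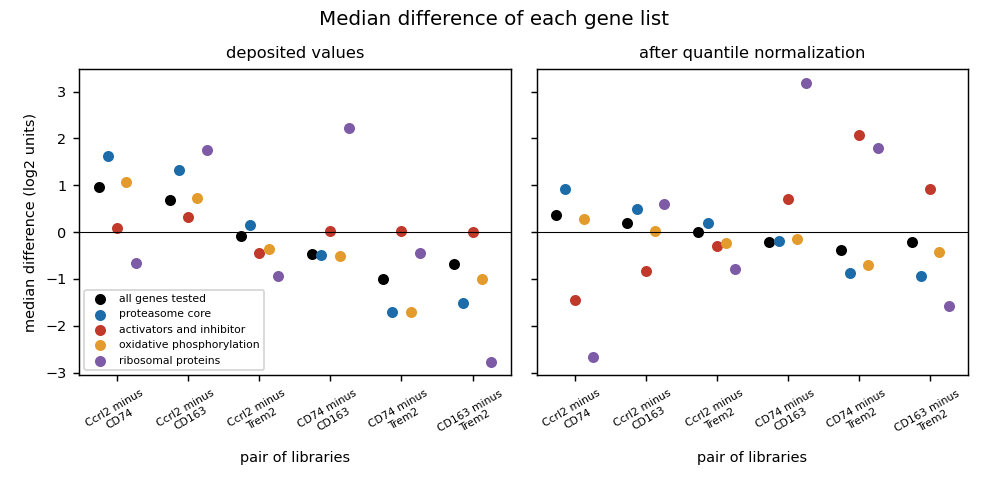
Points are the median differences in log2 value between libraries for 5 sets of genes, on the deposited scale at left and after quantile normalization at right. Over core subunits tested, the proteasome median keeps its sign in every pair under both scales, as do those of oxidative phosphorylation and of all genes tested. Those of ribosomal proteins and of the activators and inhibitor do not.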

How the data were processed

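Clariom S arrays were hybridised with amplified, biotin-labelled RNA and summarised by robust multichip average (RMA), per the labels' protocols, and Affymetrix Expression Console is named in the submitters' processing notes. RMA settings and the genome build of the probes were not stated there. Deposited values ran from 3.18 to 19.93 over gene probe sets and were read as log2 values, with 1 column per library, and the columns did not share a distribution. The 95th percentile of gene probe sets was 10.18 for Ccrl2, 8.30 for CD74, 8.91 for CD163 and 10.25 for Trem2.

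Of 28846 probe sets, 6640 were controls. Of the 22206 others, 19572 had 1 symbol in the platform annotation, 0 several and 2634 none, and all 19572, with the 48 members among them, matched a RefSeq gene of GRCm38.p6 by gene number. For 55 genes with several probe sets the brightest by mean was used. A gene was tested between libraries when it passed the background ceiling in either, and was called at a difference of 1 log2 unit (2-fold). A value under its ceiling was set to it, and the fold is then written as "at least". Against each of the other 3 libraries, calls used deposited values, and a lower call required the others to pass their ceilings. Medians used deposited values of genes tested. No member was saturated. The calls were tested on simulated libraries with an assumed spread, where changes were placed only in genes well above background. How changes near a ceiling are called, and the spread of these arrays, were not tested. Python 3.11.15, numpy 2.4.6 and pandas 2.3.3 were used.

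Named with all values were members called against each other library, catalytic subunits, activators and the inhibitor, and in each role class the 2 members with the widest and the 1 with the narrowest range. Psma1, Psma3, Psma7, Psmc2, Psmc4, Psmd1, Psmd6, Psmd11, Psmg2, Psme2b, Ubqln1 and Pomp were added after their values were seen. Alternatives were quantile normalization, median centring, percentile ranks, another fold threshold, no filter and leaving out a library; those for the order of libraries were chosen after seeing the data. The members and lists were chosen with earlier results of these data known. Marker lists of B cells, fibroblasts, endothelial cells, cardiomyocytes and dividing cells were also read. Markers above the ceiling numbered, for Ccrl2, CD74, CD163 and Trem2 in this order, 5, 4, 1 and 6 of 6 for B cells, and 5, 2, 2 and 5 of 6 for fibroblasts. They were 5, 2, 4 and 5 of 6 for endothelial cells, 7, 3, 5 and 6 of 7 for cardiomyocytes and 5, 1, 2 and 5 of 6 for dividing cells. Of the ubiquitin and E1 list only Uba6 had a value, 6.27, 5.00, 6.22 and 7.07 in the same order.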

Additional observations from a re-analysis of the deposited data

How the results depend on the processing

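After quantile normalization the median difference over the members was 0.88 for Ccrl2 minus CD74, 0.40 for Ccrl2 minus CD163, 0.11 for Ccrl2 minus Trem2, -0.19 for CD74 minus CD163, -0.88 for CD74 minus Trem2 and -0.59 for CD163 minus Trem2. With median centring these were 1.78, 1.35, 0.05, -0.49, -1.84 and -1.34. As differences in percentile rank within a library they were 7.20, 4.47, 0.996, -0.223, -8.07 and -5.63 points, so each median over members tested kept its sign under all 3 settings. Over all 48 members, tested or not, the median of CD74 minus CD163 went from -0.22 to 0.06 with quantile normalization. Quantile normalization left 17 members with Ccrl2 and Trem2 above both others. It gave 6 members higher in Ccrl2 than in CD74, 3 higher in Ccrl2 than in CD163, and 0 higher and 1 lower in Ccrl2 than in Trem2. It gave 4 higher in CD74 than in CD163, 6 higher and 4 lower in CD74 than in Trem2, and 6 higher and 7 lower in CD163 than in Trem2. Above each of the other 3 libraries it put 0 members in Ccrl2 and 2 in CD74, with 2 in CD163 and 0 in Trem2.

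Shares over all genes were not counted for the 1.5-fold threshold or for no filter, so those counts show no trait of the members. With a threshold of 1.5-fold, 6 members were higher and 9 lower in Ccrl2 than in Trem2, 4 higher in CD74 than in CD163, 1 higher in CD74 than in Trem2 and 3 higher in CD163 than in Trem2. The members above each other library then numbered 4 in Ccrl2, 2 in CD163 and 7 in Trem2. With no filter on low values, 28 were higher in Ccrl2 than in CD74, 25 higher in Ccrl2 than in CD163, 5 higher and 14 lower in CD74 than in CD163, 1 higher and 29 lower in CD74 than in Trem2, and 12 below each other library in CD74. Over core subunits alone, 0 were lower in Ccrl2 than in CD74 or CD163, 1 higher and 2 lower in Ccrl2 than in Trem2, 1 higher and 5 lower in CD74 than in CD163 and 0 higher in CD163 than in Trem2. Among them 0 were below each other library in Ccrl2 and 0 above in CD163.

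Leaving out each library in turn ranged the count above each remaining library from 1 to 20 in Ccrl2 (20 without Trem2), 0 to 1 in CD74 (1 without Trem2), 1 to 2 in CD163 (2 without Trem2) and 2 to 18 in Trem2 (18 without Ccrl2). The count below ranged from 1 to 2 in Ccrl2 (2 without CD163), 7 to 23 in CD74 (23 without CD163) and 2 to 18 in CD163 (18 without CD74), since fewer libraries have to be passed. The order of libraries held for 31 to 35 members (77.5% to 87.5%), beside 58.4% to 65.5% of measured genes. With all libraries the share of measured genes was 49.4%. For the 1.5-fold threshold, no filter, and counts above or below with a library left out, shares over all genes were not counted. Such counts are therefore not read as a trait of the members. Where the construction does not show it, the cause was not tested. No paired analysis was possible because each group has 1 library, which leaves no pairs to fit as a block. With 1 array a group no difference has an error, and values near a ceiling give only bounds.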
